A study of Mus musculus with 21 samples.

Results

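The matrix metalloproteinases Mmp2, Mmp3, Mmp8, Mmp9, Mmp10, Mmp11, Mmp12, Mmp13, Mmp14 and Mmp19 were followed in UV-irradiated and non-irradiated mouse skin. A probe set (a group of array oligonucleotides read as 1 value) was taken where the array annotation named 1 of these 10 genes and no other gene. This gave 15 of 45101 probe sets, with 3 for Mmp14, a pair each for Mmp2, Mmp9 and Mmp19, and 1 for each other gene. All 15 passed the filter on low values, which left 40540 probe sets in the tests. A gene with several probe sets was read at the one of highest mean.

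The arrays held total RNA of dorsal skin from female albino hairless mice (Hos:HR-1), which were obtained at 6 weeks of age, with 3 mice in each of 7 groups. The UV-irradiated groups were exposed 3 times a week and sampled in week 1, 2, 4, 6 or 8, when a dose was 1, 2, 4, 4 or 4 minimal erythemal doses (MED, 100 mJ/cm2 each). The non-irradiated controls were sampled in weeks 1 and 8. Controls of weeks 2, 4 or 6 were not analysed here, so every UV group was compared with control week 1, and UV week 8 with control week 8 as well. The study's Methods count 6 groups and the sample labels give 7.

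Arrays of a group correlated at r = 0.962 to 0.996 over all probe sets, and array medians lay between 4.91 and 5.06 on the log2 scale. The 3'/5' log2 ratio of the beta-actin control probes, which is higher where RNA is more degraded, was between 2.26 and 5.14. It was above 4 on 8 arrays, namely UV week 1 arrays 112 and 114, UV week 4 array 333, UV week 6 arrays 441 and 445, UV week 8 arrays 552 and 555, and control week 1 array 12. All 7 basal and all 8 suprabasal keratinocyte markers had group means above the array median in every group, and so did all 10 skeletal muscle markers. In whole skin, fewer cells of a type and less RNA per cell cannot be told apart.

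Matrix metalloproteinases are zinc-dependent proteases that cut the collagens, elastic fibres and basement membrane of the extracellular matrix. They are made as inactive zymogens, are switched on when a propeptide is cut off, and are held in check by the tissue inhibitors of metalloproteinases. In human skin, UV light is known to raise several of them through the transcription factor AP-1, a dimer of Fos and Jun proteins. Mouse skin relies largely on Mmp13 where human skin uses fibroblast collagenase.

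By position, Mmp13, Mmp12, Mmp3, Mmp10 and Mmp8 lie in that order on chromosome 9 in the RefSeq annotation. They lie in a run of 10 coding genes that are all metalloproteinases, where Mmp1b stands between Mmp12 and Mmp3, and Mmp1a between Mmp3 and Mmp10. Promoters of 7 of the 10 genes were found in the RefSeq table used (build GRCm38.p6). Mmp2, Mmp9 and Mmp19 were not matched. The 250 bases before the annotated start were searched on both strands for the AP-1 motif TGANTCA, the Ets motif AGGAAG and the TATA box TATAAA. Of the 32851 promoters in the table, 6.75% held the AP-1 motif, 29.5% the Ets motif and 12.4% the TATA box within the same window. An AP-1 match was found in 4 genes, all on chromosome 9, whose promoters are shown because they include each gene that passed a test at its chosen probe set. Capitals mark the AP-1 match. The matches began 35 bases before the start in Mmp13, 44 in Mmp12, 46 in Mmp3 and 63 in Mmp10.
Mmp13 (chr9:7272264-7272513, plus strand): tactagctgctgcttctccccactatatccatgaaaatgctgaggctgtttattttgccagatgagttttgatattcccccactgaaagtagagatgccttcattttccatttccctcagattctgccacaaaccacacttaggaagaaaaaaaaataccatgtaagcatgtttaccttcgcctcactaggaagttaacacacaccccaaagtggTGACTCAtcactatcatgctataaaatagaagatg
Mmp12 (chr9:7347124-7347373, plus strand): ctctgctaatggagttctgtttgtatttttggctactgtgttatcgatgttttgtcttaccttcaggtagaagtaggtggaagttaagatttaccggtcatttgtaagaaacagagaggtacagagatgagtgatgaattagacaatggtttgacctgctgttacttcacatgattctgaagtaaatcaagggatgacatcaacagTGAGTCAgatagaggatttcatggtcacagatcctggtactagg
Mmp3 (chr9:7445572-7445821, plus strand): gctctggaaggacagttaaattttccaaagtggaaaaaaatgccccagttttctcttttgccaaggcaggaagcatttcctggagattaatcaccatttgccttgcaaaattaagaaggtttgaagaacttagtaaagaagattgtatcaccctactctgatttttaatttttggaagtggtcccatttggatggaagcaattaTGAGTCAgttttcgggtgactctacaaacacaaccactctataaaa
Mmp10 (chr9:7502092-7502341, plus strand): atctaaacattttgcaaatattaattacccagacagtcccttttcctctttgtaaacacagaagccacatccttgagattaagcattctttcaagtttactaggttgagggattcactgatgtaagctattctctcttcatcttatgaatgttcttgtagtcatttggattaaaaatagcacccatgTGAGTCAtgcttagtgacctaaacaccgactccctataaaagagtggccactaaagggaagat
The Mmp12 promoter shown is that of the later of 2 annotated starts, and the earlier start had no AP-1 match. No AP-1 match was found in this window of Mmp8, Mmp11 or Mmp14. TATA boxes began 16, 7 and 29 bases before the start in Mmp13, Mmp3 and Mmp10. Ets matches were found in Mmp13 at 62 and 109 bases, in Mmp3 at 183, in Mmp8 at 220, in Mmp14 at 209, and in the earlier Mmp12 promoter at 87. None of the matches shown overlapped another. These are matches of letters and not sites shown to be bound.

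**Figure D1:**
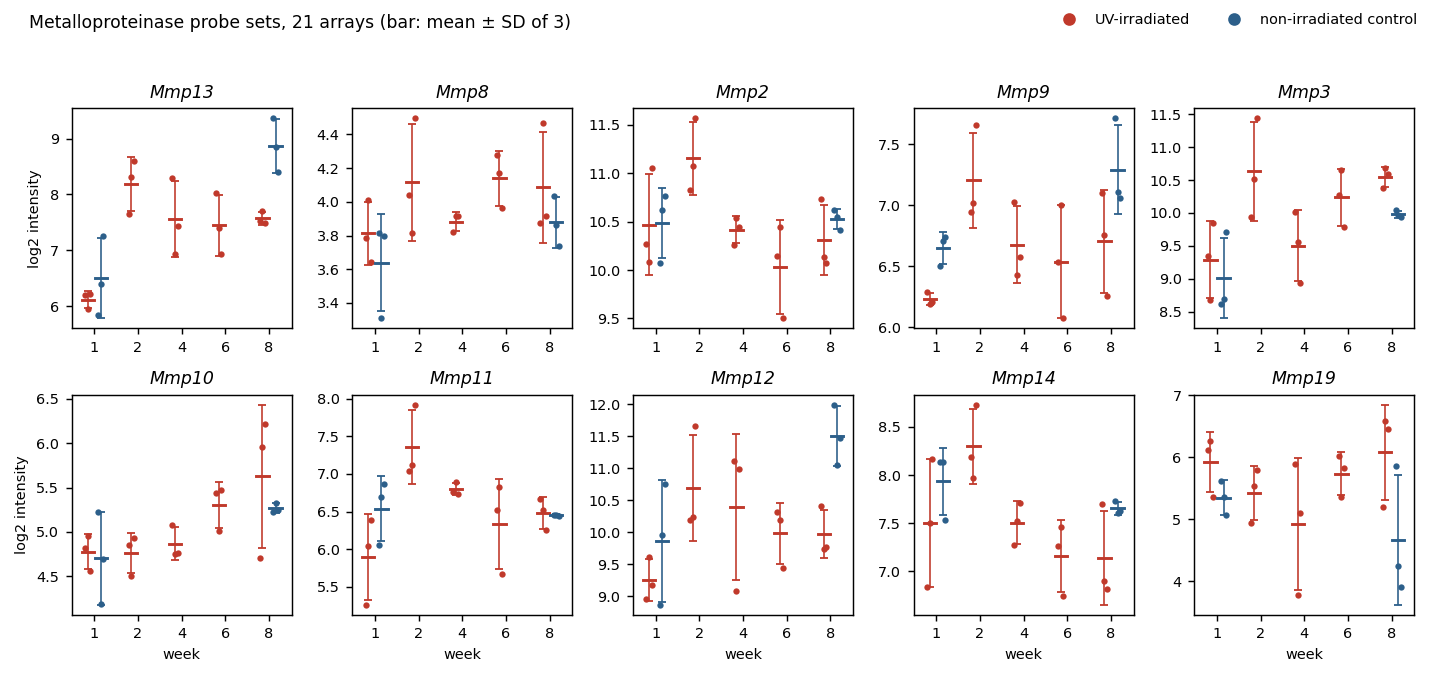
Log2 intensity (vertical axis) of the 10 genes by week (horizontal axis) in UV-irradiated mice (red) and non-irradiated controls (blue). Each point is 1 array, and bars give the mean ± SD of 3 arrays. Mmp13 reached 8.40 to 9.36 in control week 8, above all 3 arrays of UV week 8 (7.49 to 7.70).

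Few members passed in any comparison, where a gene passed at a limma p, adjusted over all tested probe sets, of at most 0.05. At UV weeks 1, 2 and 4 against control week 1, limma called 0 of 10 genes each, where 0.0123%, 0.0617% and 1.13% of all tested probe sets passed. At an unadjusted p under 0.05 there were 1 gene at week 1 (lower), 6 at week 2 (all higher) and 1 at week 4 (higher), where 19.3%, 6.32% and 12.0% of all tested probe sets reached it in either direction. Without UV week 2 array 225 the 6 genes at week 2 became 2, and without control week 1 array 12 they became 3. At UV week 6, 1 of 10 genes was higher (Mmp3), where 11.7% of all probe sets passed, 5.43% higher and 6.3% lower. At UV week 8, 2 of 10 were higher (Mmp3 and Mmp10), where 12.1% of all probe sets passed, 5.39% higher and 6.73% lower. Against control week 8, 1 of 10 was lower at UV week 8 (Mmp13), where 6.86% of all probe sets passed, 2.56% higher and 4.3% lower. Control week 8 against control week 1 gave 1 of 10 (Mmp13, higher), where 0.0592% of all probe sets passed, 0.0296% higher. The mean of the UV groups against the mean of the controls gave 0 of 10 in limma, where 14.9% of all probe sets passed, with 2 members higher at an unadjusted p under 0.05, beside 33.2% of all probe sets in either direction. Leaving out UV week 8 array 551, which left its group with the 2 arrays of high beta-actin ratio, gave 3 genes at UV week 6, 5 at UV week 8 and 6 against control week 8. The share of all probe sets that passed also went up in that fit, to 21.1%, 38.7% and 35.5%. The comparisons share control week 1 or UV week 8 arrays and are not independent of each other.

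Arrays that did not overlap between groups were more frequent than passed tests. All arrays of UV week 1 lay below those of control week 1 for 1 gene, Mmp9 (7.85% of all probe sets), and all of UV week 4 lay above for 1 gene, Mmp8 (11.9%). At UV week 6, Mmp3 and Mmp8 lay above (20.5%) and Mmp14 below (13.6%), where a second Mmp14 probe set lay above. At UV week 8, Mmp3, Mmp8 and Mmp13 lay above control week 1 (12%), while Mmp3 lay above (12.5%) and Mmp12 and Mmp13 below (9.82%) control week 8. Control week 8 lay above control week 1 for 4 genes, Mmp3, Mmp9, Mmp12 and Mmp13 (6.19%), though not at the second Mmp9 probe set.

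Mmp13, the main interstitial collagenase of the mouse, stood apart between the controls. Its log2 intensities were 6.20, 5.94 and 6.21 at UV week 1, and 7.64, 8.31 and 8.60 at UV week 2. They were 8.29, 6.94 and 7.44 at UV week 4, 8.02, 7.39 and 6.94 at UV week 6, and 7.52, 7.70 and 7.49 at UV week 8. Control week 8 had 9.36, 8.84 and 8.40, against 5.84, 6.39 and 7.26 in control week 1. Control week 8 was thus the highest group, and each pair of neighbours in the order of group means shared part of its range. Against control week 8, UV week 8 was lower by 2.46-fold (log2 difference -1.30, SE 0.37, adjusted p = 0.0424), and no array overlapped. Control week 8 was in turn 5.18-fold higher than control week 1 (log2 difference 2.37, SE 0.37, adjusted p = 0.0201). Against control week 1, the log2 differences were -0.38 at UV week 1, 1.69 at week 2 (adjusted p = 0.116), 1.06 at week 4, 0.95 at week 6 and 1.07 at week 8 (adjusted p = 0.0628), and none passed.

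The direction at UV week 8 for Mmp13 depended on which control it was set against. The comparison with control week 8 kept an adjusted p between 0.0250 and 0.154 when each array was left out in turn. It no longer passed without any 1 of control week 8 arrays 51, 53 or 55, UV week 8 arrays 552 or 555, UV week 1 array 114, UV week 2 array 224, UV week 4 array 334 or UV week 6 array 443, with log2 differences over all arrays left out of -1.53 to -1.05. The difference between the controls was 2.04 to 2.75 and did not pass without control week 1 array 12 or 13, or control week 8 array 51 or 53 (highest adjusted p 0.155). Among the 5 UV groups alone, 1 of 10 members passed the moderated F test (Mmp13, adjusted p = 0.0374), where 1.58% of all tested probe sets passed. This count was 7 without UV week 8 array 551, where 26.7% of all probe sets passed, and 0 when any 1 of the other arrays 13, 53, 112, 114, 224, 225, 334, 443, 552 or 555 was left out. Over all 7 groups, Mmp13 (adjusted p = 0.00195) and Mmp3 (adjusted p = 0.0278) passed, against 8.98% of all probe sets.

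Mmp8, the neutrophil collagenase, was below the array median on every array. Its log2 intensities were between 3.64 and 4.50 over the UV groups and between 3.31 and 4.04 in the controls. Its log2 difference from control week 1 was 0.50 at UV week 6 (adjusted p = 0.0837) and 0.45 at UV week 8 (adjusted p = 0.116).

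Mmp3 (stromelysin 1) cuts proteoglycans, basement membrane and the zymogens of other family members. It passed against control week 1 at UV weeks 6 and 8, but its highest group mean was at UV week 2 (10.63). Its log2 intensities were 9.34, 8.68 and 9.84 at UV week 1, 9.94, 10.51 and 11.44 at week 2 and 10.01, 9.56 and 8.93 at week 4. They were 10.28, 10.65 and 9.79 at UV week 6 and 10.38, 10.68 and 10.60 at UV week 8. Control week 8 had 10.04, 9.97 and 9.94, against 8.62, 8.70 and 9.71 in control week 1. All arrays of UV weeks 2, 6 and 8 lay above all of control week 1, and all of UV week 8 lay above all of control week 8. UV week 8 exceeded control week 1 by 2.91-fold (log2 difference 1.54, SE 0.37, adjusted p = 0.0141) and UV week 6 did so by 2.35-fold (1.23, SE 0.37, adjusted p = 0.0391). At UV week 2 the log2 difference was 1.62 with an adjusted p of 0.143. Against control week 8, UV week 8 differed by 0.57 (95% interval -0.21 to 1.34, adjusted p = 0.316), and control week 8 differed from control week 1 by 0.97 (adjusted p = 0.761).

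The UV week 8 value of Mmp3 was between 1.35 and 1.89 when each array was left out. It did not pass without control week 1 array 13 or UV week 8 array 552 or 555 (highest adjusted p 0.0822). The UV week 6 value was 1.03 to 1.58 and did not pass without control week 1 array 12 or 13, or UV week 6 array 441 or 443 (highest adjusted p 0.167). Leaving out the 8 arrays of high beta-actin ratio kept only array 551 at UV week 8 and array 443 at UV week 6. The log2 differences were then 1.17 at UV week 8 and 1.45 at UV week 6.

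Mmp10 (stromelysin 2), known from migrating keratinocytes of wounds, passed at UV week 8 on the strength of 2 arrays. It had log2 intensities of 4.71 on array 551 and of 5.96 and 6.22 on arrays 552 and 555, against 5.23, 4.19 and 4.69 in control week 1. Array 551 thus lay within the range of control week 1, and it lay below all arrays of control week 8. The log2 difference from control week 1 was 0.93 (SE 0.29, adjusted p = 0.0475). The group mean was 5.63 at UV week 8, against 5.27 in control week 8 and 4.70 in control week 1. Mmp10 did not pass against control week 8. The beta-actin log2 ratio was 5.14 and 4.90 on the 2 high arrays, against 2.77 on array 551. Without the 8 arrays of high ratio, array 551 alone stood for UV week 8, and the difference from control week 1 was 0.27. Fitting the beta-actin ratio as a covariate gave 0.61 (adjusted p = 0.0655). When each array was left out, Mmp10 passed only without control week 1 array 12, UV week 1 array 116 or UV week 8 array 551, with log2 differences of 0.63 to 1.39. In the other groups it was between 4.50 and 5.48 under UV and between 5.22 and 5.33 in control week 8, which lay wholly above UV week 4 (4.75 to 5.08), the next group below it.

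**Figure D2:**
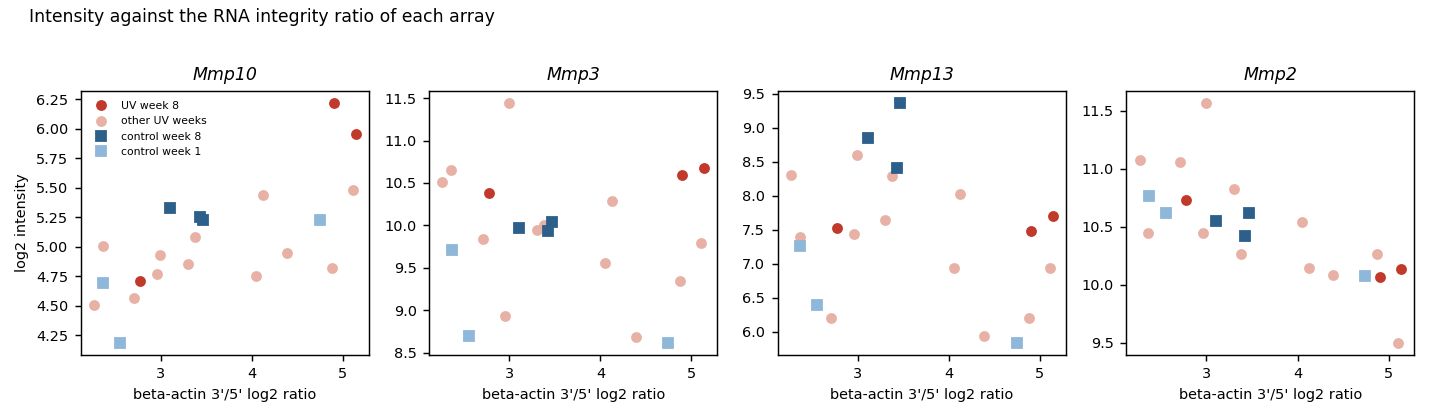
Log2 intensity (vertical axes) of Mmp10, Mmp3, Mmp13 and Mmp2 against the beta-actin 3'/5' log2 ratio of the same array (horizontal axes), with 1 point for each of 21 arrays. The 2 highest Mmp10 points are UV week 8 arrays at ratios of 5.14 and 4.90.

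Mmp11 (stromelysin 3), a protease of remodelling stroma, was highest at UV week 2. It had log2 intensities of 7.04, 7.11 and 7.92 there, against 6.05, 6.69 and 6.87 in control week 1. UV week 2 lay above every array of UV week 4, the next group in order (6.74 to 6.89). The log2 difference from control week 1 was 0.82 (adjusted p = 0.570) at week 2 and -0.64 at week 1 (adjusted p = 0.255).

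Mmp12, the macrophage metalloelastase that degrades elastin, followed Mmp13 in its order of groups at both ends. Its log2 intensities were 8.96, 9.61 and 9.18 at UV week 1, 10.20, 10.23 and 11.66 at UV week 2, and 11.12, 9.08 and 10.99 at UV week 4. They were 10.32, 10.19 and 9.44 at UV week 6 and 10.41, 9.75 and 9.77 at UV week 8, against 12.00, 11.05 and 11.47 in control week 8 and 8.87, 9.96 and 10.76 in control week 1. UV week 8 lay wholly below control week 8, with a log2 difference of -1.53 (SE 0.52, adjusted p = 0.0738) that did not pass. It passed without UV week 4 array 333 or UV week 8 array 551 (range -1.76 to -1.29, lowest adjusted p 0.0254). Control week 8 differed from control week 1 by 1.64 (adjusted p = 0.518).

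The summed linear intensity of 12 macrophage markers is given beside these values, since Mmp12 is a macrophage product. It was 22294 to 26095 at UV week 8, 23541 to 32588 in control week 8 and 22314 to 29636 in control week 1, so that the 3 groups overlapped. All 12 had group means above the array median in every group. In limma, 0 of the 12 passed between UV week 8 and control week 8 (2 lower at an unadjusted p under 0.05). Between the controls 0 passed (1 lower at that level). At UV week 8 against control week 1, 1 was lower (Mertk, a phagocytic receptor, log2 difference -1.05, adjusted p = 0.0265). In the order named, 6.86%, 0.0592% and 12.1% of all probe sets passed in these comparisons. The unadjusted level was reached by 27.6% of all probe sets in the first and 5.01% between the controls. Other markers did separate these groups. The summed hair follicle markers (12 measured) were 724 to 7317 at UV week 8, 12145 to 22259 in control week 8 and 32128 to 50845 in control week 1, with no overlap. Summed adipocyte markers (6 measured) were 9275 to 13410 at UV week 8, 13428 to 16136 in control week 8 and 18296 to 23098 in control week 1, again with no overlap. None of either list passed singly between the controls in limma, where 7 hair follicle and 3 adipocyte markers were lower at an unadjusted p under 0.05. That level was reached by 5.01% of all probe sets in either direction. The part of macrophage, hair follicle and adipocyte content in the Mmp12 and Mmp13 values was not tested.

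**Figure D3:**
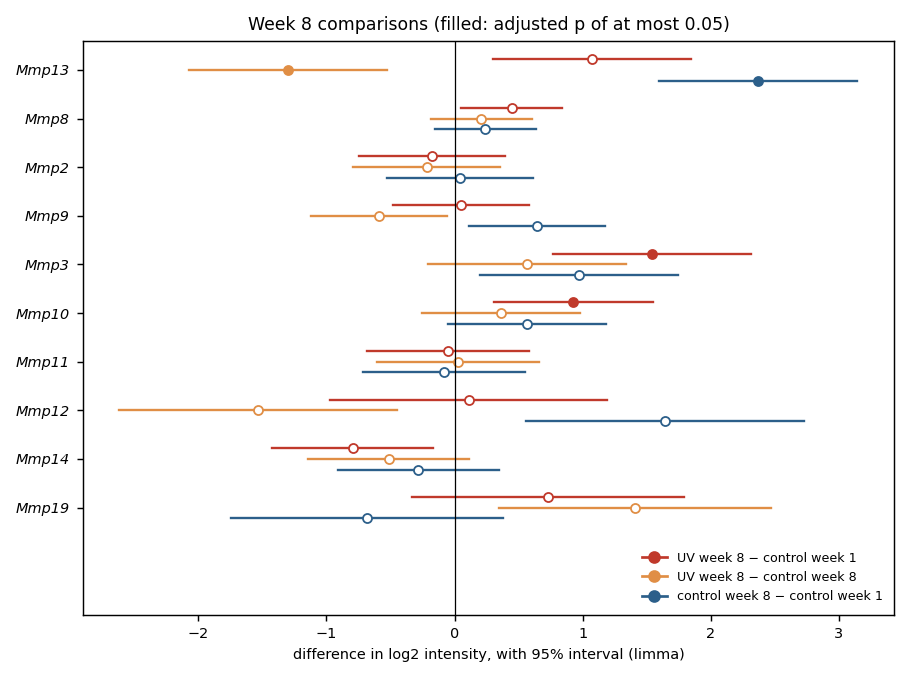
Log2 differences (horizontal axis) with 95% intervals from limma for the 10 genes (vertical axis) in UV week 8 minus control week 1 (red), UV week 8 minus control week 8 (orange) and control week 8 minus control week 1 (blue). Filled points passed at an adjusted p of at most 0.05. Mmp13 is to the left of 0 at -1.30 in the orange comparison and to the right at 2.37 in the blue one.

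The gelatinases Mmp2 and Mmp9, which cut denatured collagen and collagen IV, did not pass in any comparison. Mmp2 had log2 intensities of 10.83, 11.07 and 11.57 at UV week 2, against 10.08, 10.62 and 10.77 in control week 1, and its UV week 2 arrays lay above all those of control week 8, the next group in order. The difference was 0.67 (adjusted p = 0.660), and at UV week 8 it was -0.18 (95% interval -0.75 to 0.40). At the second Mmp2 probe set, UV week 2 (9.66 to 10.57) overlapped control week 1 (8.39 to 9.72). For Mmp9, the log2 intensities were 7.10, 6.75 and 6.26 at UV week 8, against 7.71, 7.11 and 7.06 in control week 8 and 6.50, 6.71 and 6.74 in control week 1. Control week 8 was the highest group at this probe set. At the second Mmp9 probe set UV week 2 was highest (mean 6.77), and control week 8 (6.15 to 6.90) overlapped control week 1 (6.07 to 6.23). At the Mmp9 probe set of highest mean, UV week 8 differed from control week 8 by -0.59 (adjusted p = 0.144). There, control week 8 differed from control week 1 by 0.64 (adjusted p = 0.810).

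Mmp14, the membrane-type protease that activates the Mmp2 zymogen, gave different answers at its probe sets. The one of highest mean had 7.26, 7.46 and 6.74 at UV week 6, against 8.14, 8.14 and 7.53 in control week 1 on the log2 scale, a difference of -0.78 (SE 0.30, adjusted p = 0.0888). A second one had 5.44, 5.92 and 5.91 at UV week 6, against 5.33, 5.14 and 5.27 in control week 1, a difference of 0.51 (SE 0.16, adjusted p = 0.0447) that passed. This call was lost in 11 of the 21 fits that left out an array. The third differed by -0.13 (adjusted p = 0.523). No direction is given for Mmp14. Mmp19, a protease of keratinocytes and vessels, was 5.19, 6.59 and 6.45 at UV week 8, against 5.86, 4.24 and 3.91 in control week 8 (log2 difference 1.41, SE 0.51, adjusted p = 0.0890), and its groups overlapped. Its second probe set, which was below the array median on every array, differed by -0.08 in the same comparison.

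**Figure D4:**
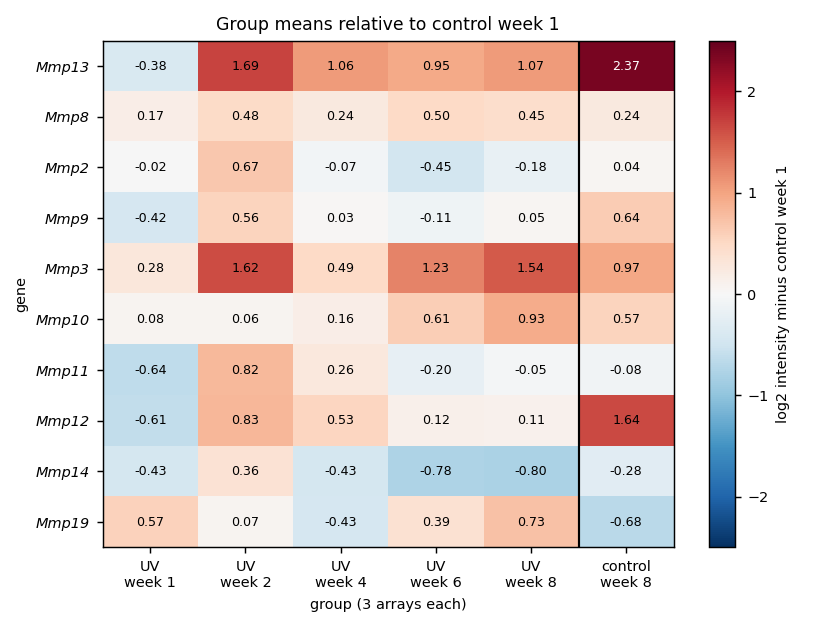
Mean log2 intensity of each gene (vertical axis) in 6 groups (horizontal axis, 3 arrays each) minus its mean in control week 1, printed in each cell. Control week 8 stands right of the line. The UV week 2 column has no negative value, and the largest value in the plot is 2.37 for Mmp13 in control week 8.

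The UV effect at week 8 (UV week 8 minus control week 8) was compared directly with that at week 1 (UV week 1 minus control week 1). None of the 10 genes passed in limma, beside 0.00247% of all probe sets. None had an unadjusted p under 0.05 either, beside 4.16% of all probe sets. For Mmp13 the difference between the effects was -0.92 (95% interval -2.01 to 0.18) on the log2 scale, and for Mmp12 it was -0.92 (-2.45 to 0.61).

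At the probe sets read for the genes, UV week 2 was the group in which all 10 had positive log2 differences from control week 1. Mmp10 (0.06) and Mmp19 (0.07) had the smallest, and a second Mmp14 probe set was not higher (mean 5.19, against 5.25). The median of the 10 was 0.61, against 0.00 over all tested probe sets. In 6 genes (Mmp2, Mmp3, Mmp8, Mmp9, Mmp11 and Mmp13) the 3 arrays lay above control week 1, as did 6.6% of all probe sets. The second Mmp2 probe set overlapped control week 1. The week 2 values rested in part on array 225. It was the highest of its group for 10 of 10 genes and the highest of all 21 arrays for 5. Without it, 8 of 10 differences were positive, the median was 0.34 and 2 genes were higher at an unadjusted p under 0.05. Array 225 also had the highest summed macrophage markers of the 21 arrays (35655, against 27619 and 21925 on arrays 222 and 224) and the highest summed neutrophil markers (2985, against 1394 and 1432). Its beta-actin log2 ratio was 2.99. The neutrophil sum rested mostly on Clec4d and Lcn2 (mean log2 8.98 and 8.71 over all arrays), where each other marker averaged at most 5.77. The part of macrophages and neutrophils in the week 2 values was not tested. Over the other UV weeks the members' medians were -0.20 at week 1 (all tested, 0.07), 0.20 at week 4 (0.04), 0.25 at week 6 (0.08) and 0.28 at week 8 (0.09). Non-irradiated control week 8 had a median of 0.40 over control week 1 (all tested, -0.002). UV week 8 had a median of -0.09 against control week 8 (all tested, 0.09). The UV week 2 means of Mmp9, Mmp10, Mmp12 and Mmp13 were below those of control week 8, and the means of the other members were above.

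UV week 6 array 445 was the lowest of its group for 8 of 10 genes, with a beta-actin log2 ratio of 5.11. It also had the lowest summed macrophage markers (17000) and the lowest summed fibroblast markers (39590) of the 21 arrays. In control week 8, array 51 was the highest of its group for 9 of 10 genes, with summed macrophage markers of 32588, against 23541 and 26150 on arrays 53 and 55.

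Across the 21 arrays, the likeness of the genes is given here as Pearson's r of log2 intensity without a test. Arrays of a group share their condition, so r after removing group means is given too. Mmp12 and Mmp13 had r = 0.85 (0.75 without group means), Mmp9 and Mmp12 0.82 (0.67) and Mmp9 and Mmp13 0.80 (0.61). Mmp2 with Mmp14 had 0.79 (0.65) and Mmp2 with Mmp11 0.76 (0.84). Mmp3 was nearest to Mmp13, at 0.65 (0.67). Mmp10 ran the other way from Mmp14 (-0.60, -0.45 without group means) and from Mmp2 (-0.57, -0.62). Mmp9 had r = 0.65 (0.58) with Mmp11 and 0.59 (0.60) with Mmp2, and Mmp11 had 0.65 with Mmp14, so that the genes did not part into separate sets.

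**Figure D5:**
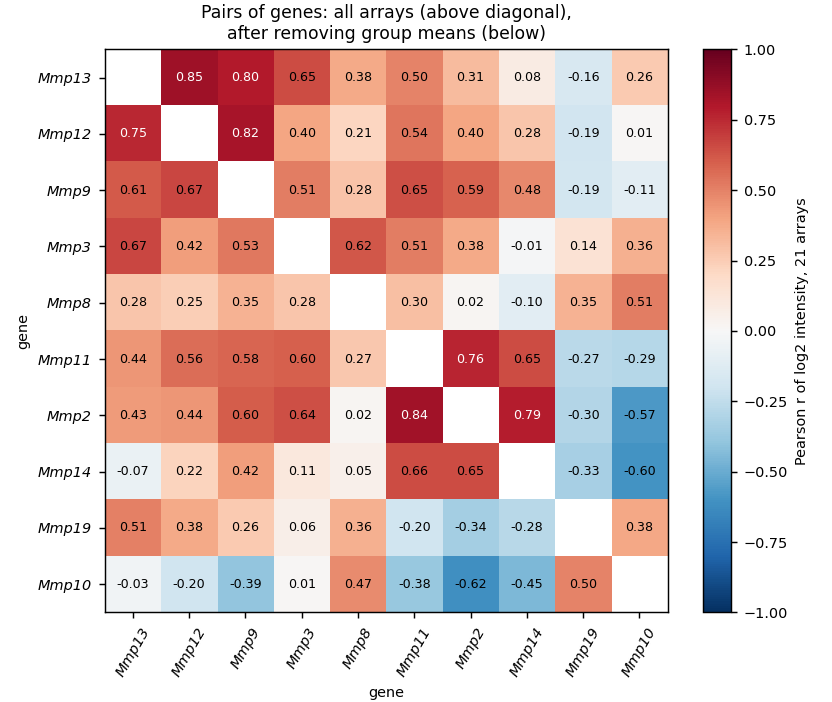
Pearson's r (colour and number) between each pair of the 10 genes (both axes) over 21 arrays, above the diagonal for all values and below it after removing group means. The highest value is 0.85 for Mmp12 and Mmp13, and the lowest above the diagonal is -0.60 for Mmp10 and Mmp14.

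Among 17393 genes, those most like Mmp13 over the 21 arrays were the chemokine Cxcl16 (r = 0.88), the macrophage pore protein Mpeg1 (0.85), the glycoprotein Gpnmb of lipid-laden macrophages (0.84), the proton channel Hvcn1 (0.83) and Wfs1 of the endoplasmic reticulum (0.81). After removing group means, r was 0.66, 0.76, 0.70, 0.72 and 0.72 in that order. Gpnmb had log2 intensities of 10.68, 9.08 and 9.13 at UV week 8, against 11.30, 10.35 and 10.53 in control week 8 and 7.76, 8.65 and 9.32 in control week 1. Those most like Mmp3 were the lectin Cd22 (0.81), Rab21, a vesicle GTPase (0.80), the antimicrobial lectin Reg3g (0.79), Mpeg1 (0.78) and the beta-glucan receptor Clec7a (0.78). Without group means these were 0.64, 0.72, 0.49, 0.63 and 0.56. Those most like Mmp11 were Pla2g7, Irf8, Cpxm1, Cfb and Tnn (0.87 to 0.85, and 0.79 to 0.87 without group means). The points share arrays, so array quality and tissue content enter every r.

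Of the other genes of the family, 8 of 13 listed had a probe set and 7 were tested. Their median log2 difference at UV week 8 against control week 1 was 0.28. In that comparison 1 passed, the membrane-type member Mmp24, which was higher (log2 difference 0.69, SE 0.22, adjusted p = 0.0477). Of all probe sets, 5.39% passed higher there. Mmp1a and Mmp1b, the mouse counterparts of human fibroblast collagenase, were below the array median on all arrays. Mmp7, Mmp20 and Mmp23 had differences of 0.28, 0.29 and 0.63 at UV week 8 and did not pass.

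Among the inhibitors, Timp3 and Reck were lower at UV weeks 6 and 8 than in control week 1. Of 11 tested, 2 were lower and 0 higher at UV week 8 against control week 1, beside 6.73% and 5.39% of all probe sets. Their median log2 difference was -0.28, against 0.09 over all tested probe sets. Timp3, the inhibitor bound to the matrix, had log2 intensities of 8.85, 7.53 and 7.54 at UV week 8, against 10.46, 9.71 and 10.10 in control week 8 and 9.20, 10.33 and 10.28 in control week 1. The groups did not overlap, and the log2 difference was -1.97 from control week 1 (SE 0.41, adjusted p = 0.00679) and -2.12 from control week 8 (adjusted p = 0.00871). At UV week 1 it was already -1.31 (adjusted p = 0.158). The lowest Timp3 values at UV week 8 were those of arrays 552 and 555 (beta-actin log2 ratios of 5.14 and 4.90), and the lowest in control week 1 was that of array 12 (4.74). The part of RNA quality in the Timp3 values was not tested. Reck, a membrane-anchored inhibitor, differed by -0.78 from control week 1 (adjusted p = 0.0144), and by -0.47 from control week 8, which did not pass (adjusted p = 0.120). Both were also lower at UV week 6 (-1.59, adjusted p = 0.0210, and -0.60, adjusted p = 0.0457), when the plasma inhibitor A2m was higher (0.53, adjusted p = 0.0311). Timp4 and Pcolce gave -0.86 and -0.28 at UV week 8 and did not pass. Timp1, chosen after its values were seen, had 8.95, 9.16 and 9.60 at UV week 2, against 8.13, 8.24 and 8.54 in control week 1, without overlap and with an adjusted p of 0.322.

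Of the activators of the zymogens, 3 passed in some comparison of UV week 2, 6 or 8 and are named here. Of 17 tested, 0 passed in limma at UV week 8 against control week 1, beside 12.1% of all probe sets. At an unadjusted p under 0.05, 3 were higher and 1 lower (median log2 difference 0.07), beside 31.2% of all probe sets in either direction. Against control week 8, 1 passed, the proprotein convertase Pcsk6 (log2 difference -1.11, SE 0.32, adjusted p = 0.0467), beside 6.86% of all probe sets. Plau, the urokinase that generates plasmin, was higher at UV week 6 (0.60, SE 0.12, adjusted p = 0.00772). The mast cell tryptase Tpsab1 was higher at UV week 2 (1.69, SE 0.27, adjusted p = 0.0199). Elane and Plaur gave 0.38 and 0.35 at UV week 8 without passing.

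Several matrix genes, whose proteins the family cuts, were lower. Of 18 tested at UV week 8 against control week 1, 6 were lower and 0 higher (median log2 difference -0.56). Of all probe sets, 6.73% passed lower and 5.39% higher there. At UV week 6, 7 were lower and 1 higher, beside 6.3% and 5.43% of all probe sets. Collagen IV chains Col4a1 and Col4a2 gave log2 differences of -1.28 (adjusted p = 0.000834) and -1.02 (adjusted p = 0.00415) at UV week 8. Fibronectin (Fn1) gave -0.77 (adjusted p = 0.0240), the collagen I chain Col1a1 -1.69 (adjusted p = 0.0294) and the proteoglycan lumican (Lum) -1.39 (adjusted p = 0.0315). Against control week 8, Lum (-1.47) and decorin (Dcn, -2.15) passed and the collagen chains did not. Col1a1 was 11.24 on UV week 8 array 551, against 9.55 and 9.36 on arrays 552 and 555, the 2 with high beta-actin ratios. Summed levels of 12 fibroblast markers, 5 of which are also in the matrix list, were 49624 to 62364 at UV week 8, below 67644 to 90309 in control week 8 and 75460 to 85358 in control week 1. All 12 had group means above the array median, and their part in the matrix values was not tested.

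Several AP-1 factors were lower at UV week 8, in a list of AP-1, Ets and other factors that bind metalloproteinase promoters. The list also held Runx2, Nfkb1, Rela and Cebpb, whose motifs were not searched for. Of 14 tested, 5 were lower and 0 higher at UV week 8 against control week 1, with a median log2 difference of -0.56. In that comparison 6.73% of all probe sets passed lower and 5.39% higher. Fos had log2 intensities of 9.45, 9.88 and 9.68, against 11.12, 12.25 and 11.36 in control week 8 and 12.48, 12.88 and 12.43 in control week 1, with no overlap. Its log2 difference was -2.93 from control week 1 (SE 0.39, adjusted p = 0.000384) and -1.91 from control week 8 (adjusted p = 0.0116). Jun gave -1.16 (adjusted p = 0.00198), Fosb -1.19 (adjusted p = 0.0271) and Fosl2 -1.11 (adjusted p = 0.0283) against control week 1. Mmp3 was higher in the same comparison and Mmp13 did not pass. Whether these factors had a part in the Mmp3 and Mmp13 values was not tested.

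Fosl1, another Fos-family member, is given as a description, since it was picked after its values were seen. Its log2 intensities were 5.34, 4.84 and 4.88 at UV week 8, against 6.05, 5.95 and 5.73 in control week 8 and 4.56, 4.37 and 5.05 in control week 1. At UV weeks 1 to 6 they lay between 4.41 and 5.58.

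Among 14 cytokines, growth factors and related inducers, 1 was higher and 3 lower at UV week 8 against control week 1. There, 5.39% of all probe sets passed higher and 6.73% lower. Ptgs2, the inducible cyclooxygenase, was 4.14, 3.79 and 3.67 at UV week 8, against 5.34, 5.05 and 5.28 in control week 8 and 5.88, 6.10 and 5.84 in control week 1 on the log2 scale. It was lower than control week 1 at UV week 4 (-1.71, adjusted p = 0.0261), week 6 (-1.98, adjusted p = 0.00465) and week 8 (-2.07, adjusted p = 0.00268). The alarmin Il33 was higher at UV week 8 (1.07, adjusted p = 0.0319), and the epidermal growth factor receptor ligands Tgfa (-0.45, adjusted p = 0.0308) and Hbegf (-0.62, at the threshold) were lower. The median of the 14 was 0.16, against 0.09 over all tested probe sets.

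Of wound keratinocyte markers, the setting in which Mmp10 is known, some were higher at UV week 8. Of 7 tested, 3 were higher and 0 lower against either control (Krt6b, Stfa3 and Stfa2l1). Of all probe sets, 5.39% passed higher against control week 1 and 2.56% against control week 8. Krt6a and Krt16 had log2 differences from control week 1 of 0.37 and 0.34, and Krt17 of -1.34 (adjusted p = 0.0764), none of which passed. The summed intensity of the 7 was 40864 to 60583 at UV week 8, against 17147 to 19612 in control week 8 and 17130 to 28352 in control week 1. Neutrophil markers, the setting of Mmp8, had 2 of 10 higher at UV week 8 against control week 1, beside 5.39% of all probe sets. These were Cxcr2 (0.46) and Clec4d (1.44). Neither passed against control week 8 (adjusted p = 0.336 and 0.602), where Mpo was higher instead (1.33, adjusted p = 0.0306). The summed neutrophil markers, mostly Clec4d and Lcn2, were 1526 to 1895 at UV week 8, against 1075 to 1724 in control week 8 and 848 to 1046 in control week 1. Of the 10 neutrophil markers, 7 had a group mean above the array median at UV week 8 and 4 in control week 8. The part of these cells in the Mmp8 and Mmp10 values was not tested.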

How the data were processed

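Total RNA of dorsal skin was hybridized to Affymetrix Mouse Genome arrays, 1 array for each of 21 mice. The authors deposited 1 intensity for each probe set and array on a linear scale, already background corrected, summarized and normalized between arrays. RMA is named in the submitters' processing notes, but the Methods give a preprocessor of Microarray Suite, and which of them made the values is unsettled. The lowest value was 4.35 and array medians were 30.1 to 33.3. Detection calls and probe intensities were not used here, and 3 arrays a group limit the precision. Groups were taken from the sample labels.

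Values under 1 were set to 1 before taking log2. Tests took in probe sets that, on 1 array or more, were not below that array's 20th percentile, without the 64 controls of the array maker. The model, a mean for each of the 7 groups over the 21 arrays (14 residual degrees of freedom), was fitted in R 4.3.3 by lmFit and eBayes of limma 3.58.1. P-values are two-sided and adjusted by Benjamini-Hochberg over the 40540 probe sets of a comparison. A gene passed at an adjusted p of at most 0.05. Adjusted p-values printed are limma's. An exact permutation test of 3 arrays against 3 cannot go below 0.1 and was not used. The fit was tested on simulated data with known changes. Log2 changes of 1, 1.5, 2 and 3 at UV week 8 were recovered in 66%, 96%, 96% and 100% of 50 probe sets each. The simulated noise was independent between probe sets, so effects shared by a whole array, such as RNA quality, were not covered.

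The Methods give 3 mice a group, and each array has a number of its own in the labels. These numbers are not shared between groups, so no pairing was used. All 10 members were described at their probe sets. For each gene list, up to 4 genes of smallest adjusted p at UV week 8 against control week 1 were named, with those that passed at 2 or more UV weeks, and further list genes printed were chosen after their values were seen. The genes most like a member were the 5 of highest r for the 3 members of smallest p in the F test over 7 groups. The members, lists and marker sets were chosen with earlier results of these data known, and so were the tests. The probe sets' genes are those of the platform annotation, and promoters come from RefSeq (GRCm38.p6). Alternatives covered the filter, the floor, quantile normalization, the arrays fitted, the prior, RNA ratios as covariates, the probe set rule, the baseline and each array left out.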

Additional observations from a re-analysis of the deposited data

How the results depend on the processing

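No paired analysis was possible because the array numbers are not shared between groups. The alternatives were run on 13 log2 differences of members, those that passed or reached 2-fold, and not on genes of the other lists. These kept their direction, except that with the mean of both controls as baseline Mmp13 was -0.13 at UV week 4 and -0.11 at UV week 8. Over all 50 differences of the 10 genes from control week 1, this baseline turned the sign of 12, which include Mmp13 at UV week 6 (-0.23) and Mmp12 at UV weeks 4, 6 and 8. Counts of members that passed were less stable. With no filter on low values UV week 8 had 1. With quantile normalization UV week 8 against control week 8 had 0 and the UV mean 1. With intensities raised to at least 16, UV week 6 had 0, UV week 8 had 1, and UV week 8 against control week 8, the controls and the 5 UV groups had 0 each. With only the groups compared in the fit, UV week 6, UV week 8, UV week 8 against control week 8 and the controls had 0 each. With the beta-actin ratio as a covariate, UV week 6 had 2, UV week 8 against control week 8 had 0 and the UV mean 1. With the Gapdh ratio these were 4 for UV week 8 against control week 8 and 1 for the UV mean. With both controls as baseline, UV week 1 had 1, UV week 6 had 0 and UV week 8 had 1. Another alternative, chosen after seeing the data, left out the 8 arrays of high beta-actin ratio. UV weeks 1, 6 and 8 then kept only arrays 116, 443 and 551, so counts from that fit are not given. Leaving out probe sets that differed 1.5-fold between the controls, likewise added later, removed 5 of the 10 genes and left 0 at UV week 6 and 1 at UV week 8.

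Leaving out each array gave 0 to 0 members at UV weeks 1 and 4 and between the effects at weeks 8 and 1, 0 to 1 at UV week 2, for the controls and for the UV mean, 0 to 3 at UV week 6, 0 to 5 at UV week 8, 0 to 6 for UV week 8 against control week 8, and 0 to 7 for the 5 UV groups. The counts of 3, 5, 6 and 7 came from leaving out UV week 8 array 551, which left in that group the 2 arrays with high beta-actin ratios. The cause of these changes was not tested. The stricter filter, the prior with a trend and the mean of a gene's probe sets changed none of these counts by over 1.5 times.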
